A study of Mus musculus with 9 samples.

Results

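Nat8l, St6gal1, Zdhhc14 and Rnf144b are 4 of the 24187 genes measured in mouse bone-marrow-derived macrophages, and they were chosen by their low reads after 6 h of lipopolysaccharide (LPS), the bacterial cell wall component that activates Toll-like receptor 4. The members were selected on the size of this LPS decrease, so their values in LPS against untreated cells are given as a description, with no test. RNA was sequenced in 9 libraries of macrophages from C57BL/6 mice at 8 weeks of age, all grown for 6 days with 10 ng/ml macrophage colony-stimulating factor and all kept for a further 6 h in complete medium. In 3 libraries the cells had 500 ng/ml LPS together with 50 µM NCT503, an inhibitor of phosphoglycerate dehydrogenase (the enzyme that opens serine synthesis from glycolysis), in 3 they had 500 ng/ml LPS alone, and 3 were untreated controls. No group had NCT503 without LPS, so an effect of the inhibitor in resting cells was not measured. The labels do not say whether replicates are separate animals or cultures, and p-values measure only the spread between these libraries. Each library held 20295862 to 23599685 reads over the genes of both tables. Macrophage identity markers were abundant in every library (8 of 8 with reads). Their summed normalized reads were 203920 to 261274 in LPS with NCT503, 392674 to 453588 in LPS and 279329 to 359191 in control. Lyz2 was the largest part, with means of 107188, 232725 and 206169 in that order. At a limma adjusted p under 0.05, 4 of the 8 were higher and 0 lower in LPS than in control. In LPS with NCT503, 0 were higher and 4 lower than in LPS, and 0 higher and 3 lower than in control.

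The 4 genes encode enzymes of unrelated pathways. Nat8l makes N-acetylaspartate from aspartate and acetyl-CoA and is best known from neurons and brown fat. St6gal1 caps the galactose of N-glycans with sialic acid in the linkage that the lectin CD22 binds, and works in the Golgi. Zdhhc14 belongs to the DHHC family, which attaches palmitate to cysteines of membrane proteins. Rnf144b is a RING-in-between-RING (RBR) ubiquitin ligase, a class that takes ubiquitin onto its own cysteine before passing it to the substrate, and in human macrophages the gene is known to be induced by LPS.

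All 4 genes lie on the plus strand (mm10, positions of the deposited tables). Nat8l is at chr5:33995984-34005916, St6gal1 at chr16:23224740-23360350, Zdhhc14 at chr17:5492600-5753891 and Rnf144b at chr13:47122656-47247991, so no 2 of them share a chromosome. Exons of the other genes of GENCODE M21 overlap only those of St6gal1, where BC106179 runs on the opposite strand and had 0 reads over all LPS libraries, against 10 over the controls. RefSeq start regions (GRCm38.p6) were at hand for 2 of the 4 genes, St6gal1 with 3 starts and Rnf144b with 2. They are shown only because they were at hand. Reads of both genes follow each other across the 9 libraries, but both genes were chosen by the same LPS decrease. Reads summed per gene do not tell which start was used. The lines give bases before starts 1 and 3 of St6gal1 (chr16:23224490-23224739 and chr16:23290220-23290469) and before start 1 of Rnf144b (chr13:47122470-47122655, ending where the first annotated exon begins), 5′ to 3′ on the plus strand, with every match to the searched motifs in capitals.
St6gal1 start 1: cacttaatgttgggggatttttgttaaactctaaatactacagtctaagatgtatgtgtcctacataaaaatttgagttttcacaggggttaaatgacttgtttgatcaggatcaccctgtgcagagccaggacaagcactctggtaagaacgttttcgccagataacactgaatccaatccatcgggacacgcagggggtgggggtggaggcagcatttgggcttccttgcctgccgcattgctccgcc
St6gal1 start 3: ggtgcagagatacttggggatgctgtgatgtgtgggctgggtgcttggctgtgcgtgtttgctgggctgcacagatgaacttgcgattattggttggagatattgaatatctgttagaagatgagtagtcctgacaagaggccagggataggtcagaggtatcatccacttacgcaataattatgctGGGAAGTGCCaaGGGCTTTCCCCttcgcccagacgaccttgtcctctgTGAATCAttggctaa
Rnf144b start 1: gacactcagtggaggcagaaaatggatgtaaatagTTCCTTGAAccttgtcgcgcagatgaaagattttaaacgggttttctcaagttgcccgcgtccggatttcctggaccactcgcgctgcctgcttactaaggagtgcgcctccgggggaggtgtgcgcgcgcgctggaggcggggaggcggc

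Both strands of the 250 bases before each start were searched for 10 motifs, the NF-κB and the interferon regulatory factor motif, TGANTCA (AP-1), TGACGTCA (CRE), TGATGNAAT (ATF4 with C/EBP), TTCNNNGAA (STAT), GAGGAAGT (PU.1), CACGTG (E-box), GGGCGG (GC box) and TATAAA, and overlapping matches were kept. The capitals before start 3 of St6gal1 hold the NF-κB motif, in more than 1 match and partly overlapping, and TGANTCA. The NF-κB motif is in 45.8% and TGANTCA in 6.75% of the 32851 start regions of the same length. The capitals before start 1 of Rnf144b hold TTCNNNGAA, which is in 7.02% of all regions, and start 2 of Rnf144b has TATAAA (12.4%) and GGGCGG (32.7%). Starts 1 and 2 of St6gal1 hold none of the 10. No motif was before starts of both genes. These matches describe letters in these windows and were not tested as binding sites.

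After LPS, each of the 4 genes kept about 2% of its control level, and reads were still present in every LPS library. Values below are reads divided by a size factor that puts the 9 libraries on one scale (normalized reads). Nat8l had 5.76, 19.1 and 6.56 normalized reads in LPS libraries 1 to 3, against 547, 589 and 683 in control libraries 1 to 3. The LPS values rest on 5, 14 and 5 reads, and library 2 stood above the other two. St6gal1 had 14.98, 17.7 and 13.1 normalized reads in the LPS libraries, against 782, 794 and 858 in the controls. Zdhhc14 had 25.3, 45.0 and 39.3 in the LPS libraries, against 1632, 1721 and 1755 in the controls. Rnf144b had 30.0, 23.2 and 28.8 in the LPS libraries, against 1387, 1223 and 1227 in the controls. For each gene every LPS library lay below every control library, in genes chosen for this decrease.

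As a percentage of the control mean, the LPS level was 1.73 ± 1.23% for Nat8l, 1.88 ± 0.286% for St6gal1, 2.15 ± 0.594% for Zdhhc14 and 2.14 ± 0.284% for Rnf144b (SD, n = 3 libraries). The fitted log2 fold changes of LPS over control, on the log2(normalized reads + 1) scale that understates changes of genes with few reads, were −5.91 ± 0.37 for Nat8l, −5.65 ± 0.20 for St6gal1, −5.54 ± 0.21 for Zdhhc14 and −5.50 ± 0.18 for Rnf144b (± SE). In that comparison 41.8% of 19975 tested genes were called, 20.5% higher and 21.4% lower (4089 and 4266 genes, against 2092 and 8536 under scaling by library totals), a background from which nothing is read here because the same contrast chose the members. Fewer cells expressing a gene and less RNA per cell cannot be told apart in these bulk samples.

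**Figure D1:**
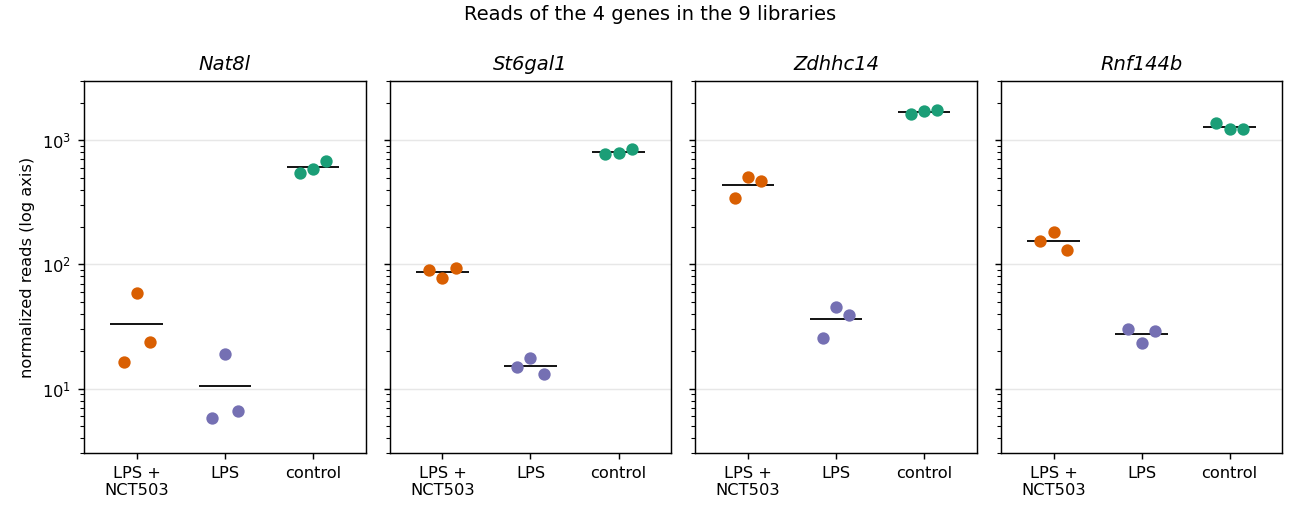
Normalized reads (log axis) of Nat8l, St6gal1, Zdhhc14 and Rnf144b in each of 3 libraries of LPS with NCT503, LPS and control; points are libraries and bars group means. Means with NCT503 lie between the other two for each gene. For Nat8l the libraries of LPS with NCT503 (16.3 to 59.3) and LPS (5.76 to 19.1) overlap.

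Per kilobase of the deposited gene length, the 4 genes stood at different levels in control cells. Zdhhc14 was highest with 547 ± 20.4 normalized reads per kb, then Rnf144b with 259 ± 19.0, St6gal1 with 165 ± 8.36 and Nat8l with 90.9 ± 10.51 (SD, n = 3). No neighbours in this order came within their SDs of each other. In LPS cells the order of the means was the same, with 11.7 ± 3.25 for Zdhhc14, 5.54 ± 0.736 for Rnf144b, 3.11 ± 0.472 for St6gal1 and 1.57 ± 1.12 for Nat8l, where the last 2 came within their SDs of each other. With NCT503 added to LPS the means were 141 ± 27.3, 31.4 ± 5.30, 17.8 ± 1.65 and 4.97 ± 3.44 in that order; Zdhhc14 stood above the others in every library.

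Reads of 3 of the 4 genes were called higher in LPS with NCT503 than in LPS alone. Zdhhc14, the palmitoyltransferase, differed most, and St6gal1 and Rnf144b differed by similar amounts. Nat8l did not pass the main test, but passed in some of the other settings given below. A smaller initial decrease and a later return of reads cannot be told apart at a single time point of 6 h. In this comparison 32.6% of 19795 tested genes were called, 16.9% higher and 15.7% lower (3351 and 3098 genes, against 4405 and 2137 under scaling by library totals). The LPS libraries by which the members were chosen enter here again, so these rises are not independent of the choice. All 4 genes passed the filter on low values in both groups.

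Zdhhc14 had 344, 506 and 470 normalized reads in the 3 libraries of LPS with NCT503, against 25.3, 45.0 and 39.3 in the LPS libraries given above. Every library with the inhibitor was above every library without it, a log2 fold change of 3.57 ± 0.27 (limma, adjusted p = 3.99e-06). Rnf144b had 153, 182 and 130 with NCT503, against 30.0, 23.2 and 28.8 with LPS alone, a log2 fold change of 2.45 ± 0.26 (limma, adjusted p = 3.53e-05). St6gal1 had 90.7, 78.0 and 93.1 with NCT503, against 14.98, 17.7 and 13.1 with LPS alone, a log2 fold change of 2.43 ± 0.29 (limma, adjusted p = 7.84e-05). The groups did not overlap for any of these 3 genes. The share of all tested genes without such overlap was not counted, so this only describes the values. Nat8l had 16.3, 59.3 and 23.8 with NCT503, from 16, 57 and 22 reads, against 5.76, 19.1 and 6.56 with LPS alone, a log2 fold change of 1.54 ± 0.55 (limma, adjusted p = 0.0521). Its lowest library with the inhibitor was below its highest without it, and in both groups library 2 stood above the other two. Other settings put Nat8l on both sides of the threshold. Its adjusted p was 0.0466 in edgeR and 0.0384 in DESeq2 on the recovered reads, and without library 2 of LPS with NCT503 the log2 fold change was 1.03 (limma, adjusted p = 0.157). The authors' deposited table gives log2 fold changes of 1.67 for Nat8l (adjusted p = 0.0382), 2.52 for St6gal1, 3.60 for Zdhhc14 and 2.50 for Rnf144b.

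With NCT503 the genes stood at different places between their LPS and control means. Distance was taken on the log2 scale, where 0% is the LPS mean and 100% the control mean. Zdhhc14 stood at 58.4, 68.4 and 66.5% of the distance in libraries 1 to 3 of LPS with NCT503. Rnf144b stood at 44.5, 49.1 and 40.3%, and St6gal1 at 44.3, 40.5 and 45.0%. Nat8l stood at 13.2, 43.7 and 21.99%. Zdhhc14 was above each of the others in every library, St6gal1 and Rnf144b overlapped, and the range of Nat8l reached theirs. These shares use the same LPS and control means that the choice of members rests on and are given with no test.

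In LPS with NCT503, all 4 were below the level of untreated cells. As a percentage of the control mean, libraries of LPS with NCT503 stood at 25.8 ± 5.002% for Zdhhc14, 12.1 ± 2.05% for Rnf144b, 10.8 ± 0.997% for St6gal1 and 5.47 ± 3.79% for Nat8l (SD, n = 3). All 4 were called lower in LPS with NCT503 than in control, where 40.4% of 19930 tested genes were called, 20.7% higher and 19.7% lower (4134 and 3927 genes, against 2451 and 6572 under scaling by library totals), but the control libraries are those by which the members were chosen. The log2 fold changes were −1.97 ± 0.17 for Zdhhc14 (limma, adjusted p = 1.07e-05), −3.05 ± 0.17 for Rnf144b (4.85e-07), −3.20 ± 0.17 for St6gal1 (2.47e-07) and −4.35 ± 0.39 for Nat8l (2.06e-05). No library of LPS with NCT503 overlapped a control library for any of the 4, and here too the share over all tested genes was not counted.

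The 4 genes hold places 2, 4, 6 and 7 in the order of LPS decreases, taken over called genes with separate groups and at least 10 CPM (reads scaled to library totals) in control. Just inside stands Rnf144b at −5.50 and just outside Sesn1, a stress-induced inhibitor of mTORC1, at −5.36. Arhgap19, 2210011C24Rik and Dbp hold the other places above Rnf144b. The next genes are Lpar5, a receptor for lysophosphatidic acid, at −5.31 and Tbc1d4, a Rab GTPase-activating protein, at −5.22. These neighbours differed among themselves in LPS with NCT503 against LPS, a comparison that shares the LPS libraries with the one that ordered them. Arhgap19 (3.95 ± 0.18), Tbc1d4 (3.55 ± 0.33) and the circadian factor Dbp (3.48 ± 0.31) had values near that of Zdhhc14 (3.57), and 2210011C24Rik (2.41 ± 0.42) near those of St6gal1 and Rnf144b. Sesn1 (−0.11 ± 0.27, limma adjusted p = 0.795) and Lpar5 (0.89 ± 0.41, adjusted p = 0.122) did not pass.

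**Figure D2:**
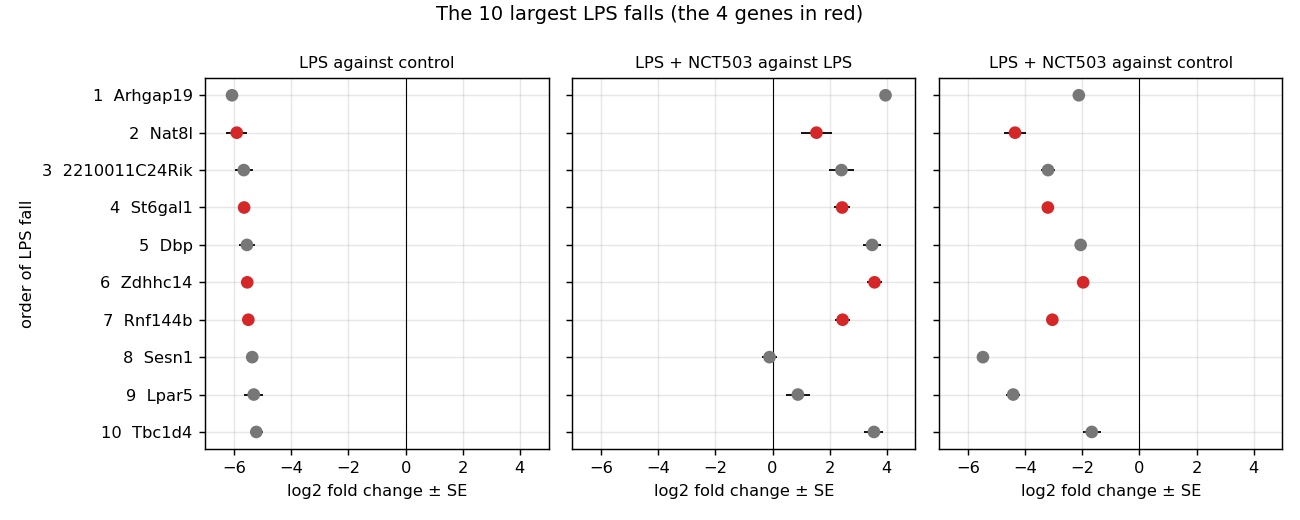
Log2 fold change (x axis, points with SE) of the 10 genes of largest LPS decrease (y axis, in that order) in 3 comparisons, with Nat8l, St6gal1, Zdhhc14 and Rnf144b in red. In LPS with NCT503 against LPS the values run between −0.11 for Sesn1 and 3.95 for Arhgap19, with Zdhhc14 at 3.57 and Nat8l at 1.54.

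Beside Nat8l, 15 other genes around N-acetylaspartate were listed (enzymes and carriers of aspartate, acetyl-CoA and N-acetylaspartate). With LPS, 2 of 11 tested genes of this list rose and 6 fell. Their median log2 fold change was −0.56, against −0.05 over all tested genes. Beside the counts of this and the next lists stand shares over all tested genes of 20.5% higher and 21.4% lower with LPS. With NCT503 these shares were 16.9% and 15.7% against LPS, and 20.7% and 19.7% against control. Slc25a12, which carries aspartate out of mitochondria, rose to 2324 ± 294 normalized reads in LPS cells, against 707 ± 40.4 in control cells (log2 1.71 ± 0.15, limma adjusted p = 3.35e-06). Slc13a3, a plasma membrane carrier of dicarboxylates that takes up N-acetylaspartate, also rose (2.18 ± 0.32). Got1, the cytosolic aspartate transaminase, fell to 492 ± 65.2 in LPS cells, against 1554 ± 78.0 in control cells (−1.66 ± 0.15), and the mitochondrial acetyl-CoA synthetase Acss1 fell as well (−1.41 ± 0.17). Aspa, which splits N-acetylaspartate, had 0, 0 and 0 reads in the LPS libraries, against 12, 3 and 6 in the controls. Aspa was thus near the detection floor in control cells too, unlike Nat8l.

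In LPS with NCT503 against LPS, 3 of 10 tested genes around N-acetylaspartate rose and 3 fell (median −0.20, against 0.08 over all genes; 0.04 under scaling by library totals). Got1 rose to 2612 ± 291 normalized reads with the inhibitor, against 492 ± 65.2 with LPS alone (log2 2.41 ± 0.18, limma adjusted p = 3.35e-06). Acss1 rose too (2.06 ± 0.22). Slc13a3 fell to 961 ± 170 with the inhibitor, against 5786 ± 1906 with LPS alone (−2.55 ± 0.25), and Slc25a12 fell by 1.89 ± 0.18 on the log2 scale. In LPS with NCT503 against control 3 of 10 were higher and 3 lower (median −0.28), against 1 higher and 6 lower under scaling by library totals (median −0.73).

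St6gal1 was low in LPS cells. Of the 6 St3gal sialyltransferases, which make the other common linkage to galactose, 4 rose, 1 fell and 1 did not pass the test. Of 25 tested genes of sialic acid synthesis, transfer and removal other than St6gal1, 6 rose and 9 fell with LPS (median −0.18). Over all tested genes 20.5% rose and 21.4% fell. St3gal5, which makes the ganglioside GM3, rose to 5055 ± 217 normalized reads in LPS cells, against 421 ± 66.6 in control cells (log2 3.60 ± 0.16, limma adjusted p = 1.45e-08). St3gal3 (2.97 ± 0.18), St3gal1 (2.78 ± 0.15) and St3gal4 (1.40 ± 0.18) rose with it. St3gal2 fell to 526 ± 63.5 in LPS cells, against 849 ± 72.4 in control cells (−0.69 ± 0.15, limma adjusted p = 0.00381). St3gal6 did not pass (0.23 ± 0.23, adjusted p = 0.455), and its sign turns under scaling by library totals (−0.47). Per kilobase, St3gal1 stood at 2494 ± 224 in LPS cells, against 365 ± 35.0 in control cells, whereas St6gal1 stood at 3.11 ± 0.472 against 165 ± 8.36. St8sia4, which builds polysialic acid, fell (−2.08 ± 0.18).

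With NCT503, 1 of the 6 St3gal genes rose, 3 fell and 2 did not pass the test against LPS. Of the 25 tested genes of this list 6 rose and 4 fell in LPS with NCT503 against LPS (all tested genes, 16.9% and 15.7%). Their median of −0.13 turns to 0.11 under scaling by library totals. St3gal4 fell to 221 ± 36.6 normalized reads with the inhibitor, against 1162 ± 186 with LPS alone (log2 −2.39 ± 0.20, limma adjusted p = 7.94e-06), which is also below its control mean of 442 ± 76.6. St3gal3 (−1.51 ± 0.17) and St3gal5 (−0.93 ± 0.19) fell as well, whereas St3gal2 (0.20 ± 0.23, adjusted p = 0.532) and St3gal6 (−0.48 ± 0.30, adjusted p = 0.238) did not pass. St3gal1 rose to 18935 ± 1152 with the inhibitor, against 12433 ± 1115 with LPS alone (0.61 ± 0.16, adjusted p = 0.0126), a call lost without library 1 of LPS with NCT503 (0.59, adjusted p = 0.0522) or LPS library 3 (0.55, adjusted p = 0.0767). Gne, the enzyme that opens sialic acid synthesis, rose (1.69 ± 0.21), to 441 ± 76.4 with the inhibitor, against 136 ± 20.2 with LPS alone. In LPS with NCT503 against control 6 of 26 tested genes were higher and 9 lower (5 and 10 under scaling by library totals).

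Zdhhc14 and its closest DHHC relatives, Zdhhc9 and Zdhhc18, took different courses. Of 31 tested genes of palmitoylation and its reversal other than Zdhhc14, 10 rose and 4 fell with LPS (all tested genes, 20.5% and 21.4%). Their median of 0.23 turns to −0.47 under scaling by library totals, with 7 higher and 15 lower. TMM gave 10 and 8. Zdhhc18 rose to 6447 ± 1405 normalized reads in LPS cells, against 1223 ± 152 in control cells (log2 2.39 ± 0.18, limma adjusted p = 1.29e-06). Zdhhc9 fell to 352 ± 22.3 in LPS cells, against 1023 ± 164 in control cells (−1.52 ± 0.16). Zdhhc2 (3.83 ± 0.41), at 106 ± 32.3 against 6.95 ± 3.74 normalized reads, and Zdhhc5 (1.37 ± 0.13) rose. Zdhhc14 was the most abundant of the 3 relatives per kilobase in control cells, with 547 ± 20.4 against 227 ± 28.2 for Zdhhc18 and 152 ± 24.3 for Zdhhc9. In LPS cells Zdhhc18 was the most abundant, with 1198 ± 261 per kb, against 52.3 ± 3.31 for Zdhhc9 and 11.7 ± 3.25 for Zdhhc14.

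With NCT503, 5 of the 31 rose and 7 fell against LPS (median −0.26), beside 16.9% and 15.7% of all tested genes. Under scaling by library totals 5 rose and 5 fell (median −0.01). Zdhhc18 rose further, to 11671 ± 843 normalized reads with the inhibitor, against 6447 ± 1405 with LPS alone (log2 0.88 ± 0.19, limma adjusted p = 0.00473), while Zdhhc9 did not pass (−0.37 ± 0.18, adjusted p = 0.142). Abhd10, which removes palmitate in mitochondria, rose (1.61 ± 0.20), and the thioesterase Ppt2 fell (−2.01 ± 0.19), as did Zdhhc2 (−1.79 ± 0.32). In LPS with NCT503 against control 10 of 31 were higher and 8 lower (median 0.13). This balance turned under the other scalings, to 10 higher and 13 lower with TMM, 7 and 14 with library totals (median −0.32) and 7 and 13 with quantile normalization. Zdhhc18 was higher at 3.26 ± 0.15 (limma adjusted p = 1.14e-07).

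**Figure D3:**
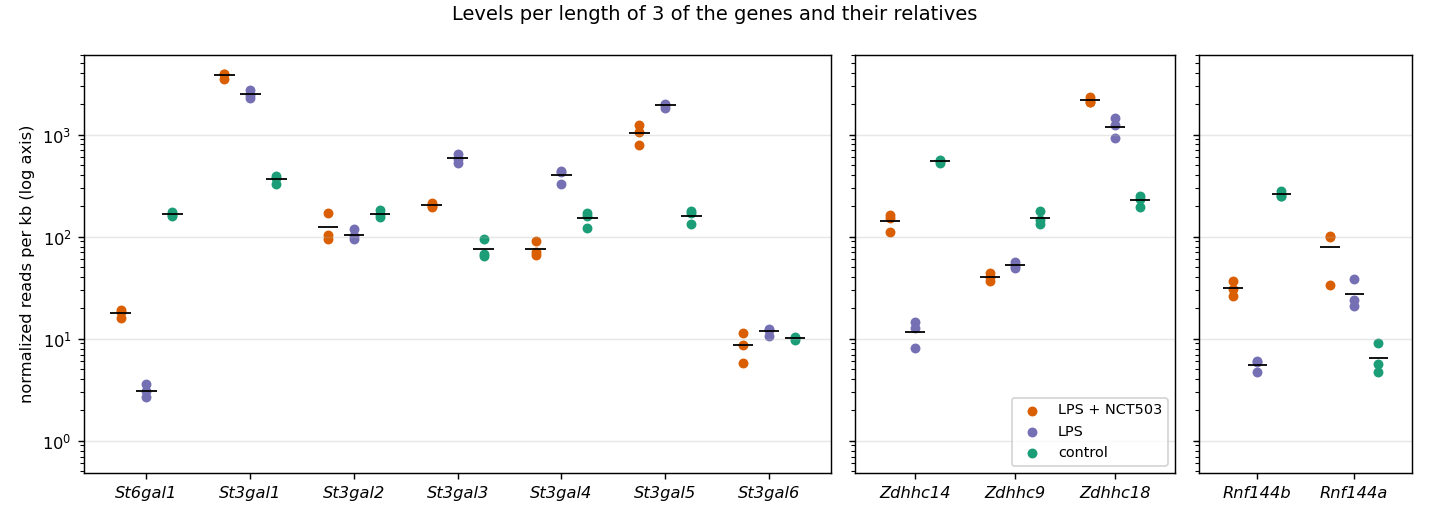
Normalized reads per kb of gene length (log axis) of St6gal1, Zdhhc14 and Rnf144b beside relatives of the same enzyme family in LPS with NCT503, LPS and control; points are libraries (n = 3), bars are means. St6gal1, Zdhhc14 and Rnf144b are lowest in LPS. There St3gal1 (2494), Zdhhc18 (1198) and Rnf144a (27.6) stand above their control means of 365, 227 and 6.49, and St3gal2 (104) and Zdhhc9 (52.3) below theirs of 168 and 152.

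Rnf144b was low in LPS cells and its paralog Rnf144a was high. Rnf144a had 153, 280 and 176 normalized reads in the LPS libraries, against 67.0, 34.3 and 41.7 in the controls (log2 2.08 ± 0.30, limma adjusted p = 0.000188). Of the 15 tested RBR ligases and their E2 enzymes other than Rnf144b, 8 rose and 2 fell with LPS (all tested genes, 20.5% and 21.4%). Their median of 0.41 turns to −0.29 under scaling by library totals, with 5 higher and 6 lower. Rnf19b rose to 35482 ± 6666 normalized reads in LPS cells, against 3668 ± 10.48 in control cells (3.26 ± 0.17). Rnf31, the catalytic subunit of the linear ubiquitin chain assembly complex (2.13 ± 0.17), and Ube2l6, the E2 enzyme for the ubiquitin-like protein ISG15 (2.23 ± 0.18), rose.

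With NCT503, 4 of the 15 rose and 4 fell against LPS (median 0.10), beside 16.9% and 15.7% of all tested genes. Under scaling by library totals 6 rose and 4 fell (median 0.35). Rnf31 (−1.41 ± 0.19) and Ube2l6 (−1.13 ± 0.19) fell, and Rnf19a rose (1.49 ± 0.28). Rnf144a had 743, 245 and 736 normalized reads with the inhibitor, against 153, 280 and 176 with LPS alone (1.38 ± 0.40, limma adjusted p = 0.0204). Library 2 with the inhibitor lay within the LPS range, and the call is lost without libraries 1 (1.11, adjusted p = 0.0845) or 3 (1.12, adjusted p = 0.0939) of LPS with NCT503, or libraries 1 (1.20, adjusted p = 0.0795) or 3 (1.30, adjusted p = 0.0791) of LPS. In LPS with NCT503 against control 10 of 15 were higher and 1 lower (7 and 3 under scaling by library totals), with Rnf144a at 3.45 ± 0.44 (adjusted p = 0.000288) and Rnf19b at 2.54 ± 0.14.

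**Figure D4:**
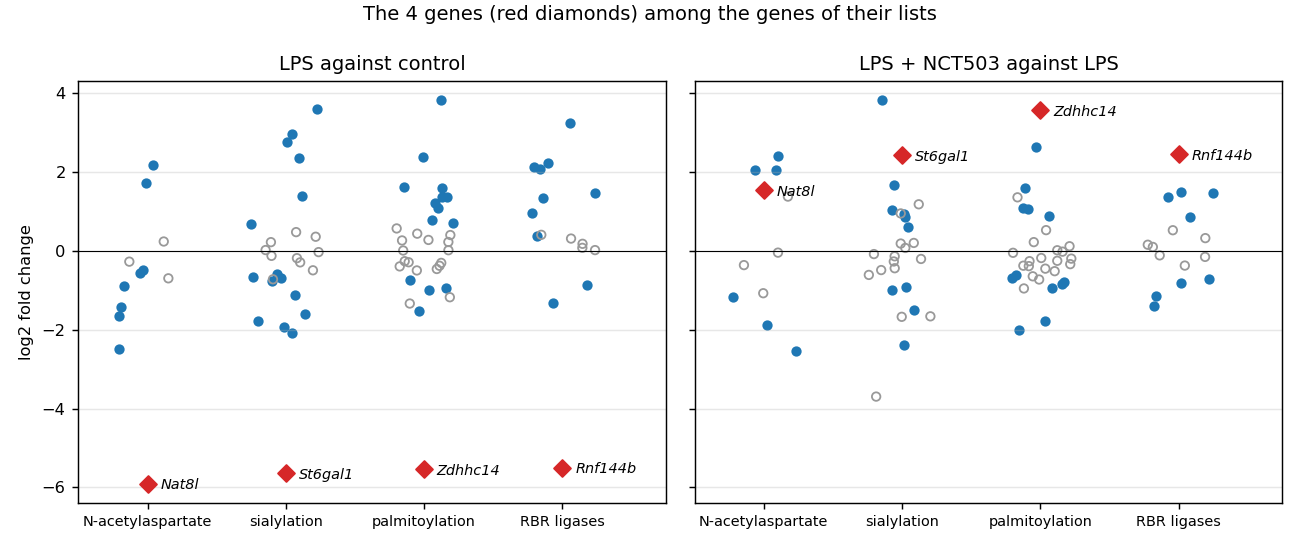
Log2 fold change (y axis) of Nat8l, St6gal1, Zdhhc14 and Rnf144b (red diamonds) and of the other tested genes of the 4 lists (filled blue, adjusted p under 0.05; open grey, not called) in LPS against control and in LPS with NCT503 against LPS; horizontal scatter only separates points. With LPS the other genes lie between −2.49 and 3.83, and the 4 chosen genes between −5.91 and −5.50.

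Across the 9 libraries, the profiles most like those of the 4 genes were sought among 8844 other genes with at least 10 CPM in one group. Likeness was the Pearson correlation of log2(normalized reads + 1), and the 4 genes themselves were left out of this search. The 9 points share 3 group levels and library scaling, so high values are common and are a description. Nearest to Nat8l were Man1c1 (r = 0.997), Abcc3 (0.997) and Ptprs (0.997). Nearest to St6gal1 were Gtf2i (0.998), Slc37a2 (0.997) and Prkag2 (0.996), and nearest to Zdhhc14 were Dbp (0.996), Eef2k (0.996) and Pnpla7 (0.995). Nearest to Rnf144b were Sgsh (0.995), 1810011H11Rik (0.994) and Nrp1 (0.993). A like profile did not always mean a like size of change. Man1c1 averaged 2770 normalized reads with NCT503, 1623 with LPS and 10936 in control, a log2 fold change with LPS of −2.77 ± 0.17. For Nat8l, to which Man1c1 was nearest, that change was −5.91 ± 0.37. Dbp averaged 231, 20.7 and 971 in the same order, and its change (−5.55 ± 0.28) was near that of Zdhhc14 (−5.54 ± 0.21). Among the 4 genes themselves St6gal1 and Rnf144b were most alike (r = 0.993) and Nat8l and Zdhhc14 least (r = 0.897).

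The 3′ UTRs of the 4 genes differed in length. The 3′ UTR of the transcript with the longest coding region (GENCODE M21) was 4769 bases in Nat8l, 3490 in Rnf144b, 2478 in St6gal1 and 718 in Zdhhc14, against a median of 925 over 14195 tested coding genes. The element ATTTA, the core of AU-rich elements that mark messages for decay, occurred 9 times in the 3′ UTR of Rnf144b, 1 time each in Nat8l and St6gal1 and 0 times in Zdhhc14, and 64.3% of the 14195 genes had at least 1. Per kb of 3′ UTR these are 2.58, 0.210, 0.404 and 0, against a median of 1.15, so only Rnf144b was above the median.

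Markers of other cell types were read beside these results. Of 6 B cell markers, cells in which St6gal1 is abundant, 4 were among the genes of both tables, and their summed normalized reads were 759 to 905 in LPS with NCT503, 566 to 648 in LPS and 1049 to 1246 in control. Most of each sum was Cd22, with 742 to 867, 545 to 599 and 968 to 1156 in the same order. Cd79b, a subunit of the B cell receptor, averaged 11.5 ± 5.91 in LPS cells, against 83.5 ± 5.64 in control cells (log2 −2.85 ± 0.35, limma adjusted p = 5.72e-05), and 10.9 ± 7.89 in LPS with NCT503. It thus moved with St6gal1 under LPS, and did not pass in LPS with NCT503 against LPS (−0.32 ± 0.65, adjusted p = 0.734). Of the 4 B cell markers 1 was called higher and 2 lower with LPS. Pax5 was at 0 in all 3 controls and rose with LPS to 10.3 ± 5.94 (3.41 ± 0.55, limma adjusted p = 0.000391). Cd79a did not pass with LPS (0.15 ± 0.58, limma adjusted p = 0.859), and it was at 0 in 2 of the 3 libraries of LPS with NCT503. Of 5 neuronal markers, 2 were among the genes of both tables, summing to 19.4 to 30.2, 54.1 to 125 and 44.9 to 156 in the same order of groups. The neutrophil list (5 of 6) summed to 220 to 400 in LPS with NCT503, against 2037 to 5132 in LPS and 2709 to 4649 in control, the mast cell and basophil list (3 of 4) to 70.3 to 93.6, 513 to 640 and 390 to 573, the T and NK cell list (6 of 6) to 3145 to 5159, 1901 to 2376 and 3811 to 6406, and the dendritic cell list (4 of 4) to 68.7 to 112, 48.4 to 82.6 and 7.21 to 29.4. Stromal markers (6 of 6) summed to 16028 to 41136, 15524 to 34036 and 5470 to 25133, and erythroid markers (3 of 4) to 20.4 to 24.97, 17.3 to 55.1 and 21.9 to 36.4. The B cell and T and NK cell sums are lowest in LPS, as are the 4 genes. Without Cd22, B cell markers summed to 13.5 to 37.9 in LPS with NCT503, 16.1 to 48.5 in LPS and 81.2 to 92.9 in control. Their ranges with NCT503 and with LPS alone overlap, so only Cd22 puts the B cell sum lowest in LPS. The T and NK cell sum is nearly all Cd4, and its other 5 markers summed to 20.8 to 65.2 in LPS with NCT503, 90.0 to 161 in LPS and 67.9 to 121 in control. The part of these cells in the results was not tested.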

How the data were processed

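TopHat2 and the build mm10 are named in the submitters' processing notes. What counted the reads, on which annotation and strand, is not given in the sources used here. Deposited by the authors were 2 tables, LPS against control (23001 genes) and LPS with NCT503 against LPS (22620 genes), each with signal per library and group mean, a log2 fold change, a p-value and an adjusted p-value. In 100% of values of the 12 library columns the deposited signal was a whole multiple of 1 step per library (tolerance 0.001), so it is reads divided by a size factor. The 3 LPS libraries had the same reads in both tables over 21434 shared genes, where library totals were 20295862 to 23599685 reads.

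For the third comparison and for all levels printed, the 9 libraries were rescaled together by median of ratios (size factors 0.733 to 1.46); fold changes of the first 2 comparisons use the deposited scale. A gene entered where either group averaged 1 normalized read or more. The test was limma-trend (limma 3.58.1, R 4.3.3, trend and robust) on log2(normalized reads + 1), each with 3 libraries a group, and called at a Benjamini-Hochberg adjusted p under 0.05 over all genes tested, with no pairing. The fit was also run on simulated data in which all genes had the same relative spread and few genes changed. That setting differs from these libraries, and no result here rests on it. edgeR 4.0.16 and DESeq2 1.42.0 on the recovered reads, other scalings, pseudocounts and filters, a replicate block and leaving out each library were alternatives.

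The 4 genes and the gene lists were chosen with earlier results of these data known. Named genes are the 4, the first 10 in the order of LPS decreases, the 3 nearest profiles per gene, up to 5 genes of smallest p per list and comparison among those called, and close relatives (Rnf144a, Aspa, the St3gal genes, Zdhhc9 and Zdhhc18) whatever their values. The symbol St6galnac2 has 2 identifiers, of which 1 is counted. Because the labels do not say whether the numbers pair the samples, they were not used as pairs. Deviations of same-numbered libraries from their group means correlated at 0.369, 0.318 and −0.0952 for numbers 1 to 3 between LPS with NCT503 and LPS. These values do not settle whether the libraries are paired.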

Additional observations from a re-analysis of the deposited data

How the results depend on the processing

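Every called value of St6gal1, Zdhhc14 and Rnf144b kept its direction and its side of the threshold in the alternatives run, and so did the Nat8l value in LPS with NCT503 against control. In LPS against control, scaling by library totals gave −6.33 for St6gal1, −6.23 for Zdhhc14 and −6.19 for Rnf144b, and a pseudocount of 5 gave −5.34 for St6gal1. Nat8l in LPS with NCT503 against LPS passed under scaling by library totals (1.77) and without a filter (1.54). It also passed in edgeR (1.71), in DESeq2 (1.67) and with all 9 libraries in 1 fit (1.55). With a replicate block it passed too (1.54, limma adjusted p = 0.00369), but the labels do not say whether the numbers pair the samples. Leaving out 1 library gave 1.03 to 2.03 for Nat8l, with limma adjusted p between 0.0256 and 0.158. The share regained by St6gal1 became 40.1% under quantile normalization. The replicate block called 9714, 8186 and 8098 genes in the 3 comparisons, against 8355, 6449 and 8061 without it, and ended the calls of Rnf144a in LPS with NCT503 against LPS (adjusted p = 0.283) and of Slc13a3 in LPS against control (adjusted p = 0.0525); of the genes named with values it ended no other call. Leaving out 1 library left 6432 to 8553, 4334 to 7304 and 5808 to 9141 genes called. Scaling by library totals moved the median log2 fold change of all genes to −0.68, 0.30 and −0.37, from −0.05, 0.08 and 0.05, and the share of calls that were higher to 19.7, 67.3 and 27.2%, from 48.9, 52.0 and 51.3%. Depth limits Nat8l most, with 24 reads over the 3 LPS libraries, against 36, 85 and 65 for St6gal1, Zdhhc14 and Rnf144b. No group has more than 3 libraries, so single deviating libraries were not looked for.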
